A study of Rattus norvegicus with 11 samples.

Results

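The Egr family of zinc-finger transcription factors, Egr1, Egr2, Egr3 and Egr4, was examined in RNA of the rat medial prefrontal cortex, in animals that had self-administered heroin and in yoked saline controls. The members are all non-control probes of the arrays whose gene name is Egr1, Egr2, Egr3 or Egr4, whatever their values. This gave 4 of the 41012 non-control probes, 1 for each gene, and 13 of the 43379 non-control spots, because the Egr1 probe is spotted 10 times on every array. All 11 rats were males aged 4 months. The 6 heroin rats licked a spout for intravenous heroin in daily sessions over 14 days, were kept from the drug for 14 days, and then had a drug-free extinction session in the same chambers, directly after which the tissue was taken. Each of the 5 yoked rats had saline infused at the times set by the licking of a heroin rat, with no exposure to the drug, and went through abstinence and extinction too, so both groups share the surgery, the chambers and the session. Each rat had its own single-colour Agilent array, and 1 further saline array named in the methods was not analysed here.

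Egr genes are immediate-early genes, which neurons transcribe within minutes of strong synaptic input without needing new protein. Signals through the ERK kinase cascade reach their promoters by way of serum response factor, which binds CArG boxes together with ternary complex factors, and by way of CREB, which binds cyclic AMP response elements. The proteins bind GC-rich DNA through tandem zinc fingers, and the Nab corepressors bind to and restrain several of them. In the brain, Egr1 (also called zif268) is best known from work on long-term potentiation and memory, Egr3 from synaptic plasticity, and Egr2 (Krox20) from hindbrain patterning and from myelination by Schwann cells.

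The arrays read each gene through a probe of 60 nucleotides, whose first 30 bases are shown so that the measured transcript can be identified. The array files place the Egr1 probe at chr18:27373819-27373878, the Egr2 probe at chr20:21897740-21897799, the Egr3 probe at chr15:50494763-50494822 and the Egr4 probe at chr4:120009770-120009829 of the rat genome build rn3. They name the transcripts as NM_012551, NM_053633, NM_017086 and NM_019137. The place of the probes within exons was not analysed here.
Egr1: tttgtatgctatgaacatgaagttcattat
Egr2: gctcttaatagttgtggaaagattaaacaa
Egr3: aacaagaccgtgacctacttgggaaagttc
Egr4: cagacgctactctcaagcatttgacaaaac
No pair of Egr probes shared a run of more than 8 bases, and no other probe of the array held any 25-base stretch of an Egr probe. The Egr3 probe has a GC content of 51.7%, against 28.3%, 35.0% and 31.7% for those of Egr1, Egr2 and Egr4.

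The promoters are shown because Egr1, Egr2 and Egr4 moved together from rat to rat, as described further on. The 250 bases before the transcription start come from RefSeq on build GRCr8 and are written on the strand of the gene, 5′ to 3′. They lie at chr18:26736828-26737077 (plus strand) for Egr1, chr20:21054442-21054691 (minus strand) for Egr2 and chr4:119607818-119608067 (minus strand) for Egr4, while Egr3 has no entry in the table. The capitals mark every match, on either strand, to the CArG box of serum response factor and to the core TGACG of the cyclic AMP response element, which reads CGTCA on the other strand.
Egr1: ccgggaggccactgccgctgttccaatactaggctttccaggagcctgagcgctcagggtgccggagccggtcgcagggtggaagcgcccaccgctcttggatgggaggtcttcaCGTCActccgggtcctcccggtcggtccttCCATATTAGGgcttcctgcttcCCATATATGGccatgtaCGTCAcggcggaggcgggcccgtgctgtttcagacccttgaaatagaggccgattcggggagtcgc
Egr2: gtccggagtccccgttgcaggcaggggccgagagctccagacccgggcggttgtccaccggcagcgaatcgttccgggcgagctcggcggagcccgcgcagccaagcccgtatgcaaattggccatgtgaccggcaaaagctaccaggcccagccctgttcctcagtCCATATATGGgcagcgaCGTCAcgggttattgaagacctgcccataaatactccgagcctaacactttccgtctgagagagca
Egr4: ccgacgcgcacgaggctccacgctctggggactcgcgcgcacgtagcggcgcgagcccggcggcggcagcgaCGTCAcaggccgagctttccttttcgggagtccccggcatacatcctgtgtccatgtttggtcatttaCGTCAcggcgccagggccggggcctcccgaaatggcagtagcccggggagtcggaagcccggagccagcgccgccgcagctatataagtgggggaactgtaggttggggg
Egr1 held 2 CArG boxes, at -105 to -96 and -83 to -74 counted from the start, and Egr2 held 1, at -83 to -74, whereas Egr4 held 0. The box at -83 to -74 reads CCATATATGG in both Egr1 and Egr2, and both genes have a TGACG core at -66 to -62. Egr1 and Egr4 held 2 TGACG cores each and Egr2 held 1. Among all 33469 promoters of the same length in the table, 1.5% held a CArG box and 0.0209% held 2 or more, while 18.2% held TGACG and 3.98% held it 2 or more times. The full palindrome TGACGTCA (1.59% of promoters) and the Egr recognition motif GCGNGGGCG (4.29%) were matched in none of the 3, with TGACG counted also where it lies inside the palindrome. These matches are a description of the letters and were not measured as sites in this tissue.

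Signals are given as multiples of the median signal of all non-control probes on the same array. Before scaling, this median lay between 42.7 and 78.3 in heroin rats and between 58.0 and 83.2 in saline rats, with heroin replicate 6 the dimmest and saline replicate 6 the brightest of the 11. Arrays with the same recorded scan time were taken as sharing a slide, and the slides were not identified otherwise. By this, same-numbered heroin and saline arrays shared a slide. The saline array was always at position 3 and the heroin array at position 4, so the position and the group cannot be told apart. No other array analysed here had the scan time of heroin replicate 1. With this scaling the median of the 25555 probes tested was itself 0.18 higher in heroin rats on the log2 scale, against 0.01 after quantile normalization, -0.03 with scaling to the 75th percentile and -0.05 relative to Actb. The 7 neuronal marker genes of the list used here were all detected on all arrays, and their summed signal, with marked spots kept so that every sum holds all 7, ranged from 538 to 711 array medians in heroin rats and from 452 to 650 in saline rats. Of the neuronal list 0 of 7 genes passed the thresholds described next, with a median change of 0.19 (-0.03 after quantile normalization), and 0 passed in the lists for astrocytes (6 tested), oligodendrocytes (5), microglia (4), endothelium (4), blood (2), striatum (3) and Schwann cells (2). Of all probes 2.72% passed in either direction, so 0 in lists this short shows nothing about the share of these cells. In whole tissue, a change in the number of cells that express a gene and a change in RNA per cell cannot be told apart.

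Egr1, Egr2 and Egr4 were higher in heroin rats by 1.58-, 2.03- and 1.83-fold, and each passed both thresholds of the study, which ask for 1.4-fold or more at an unadjusted p below 0.02. Egr3 did not, with a ratio of 1.21. The share of all probes tested that passed both thresholds in the same direction was 1.79%, so 3 of 4 is set against that share. None of the 4 passed after Benjamini-Hochberg adjustment over all probes, where limma's adjusted p was 0.263 for Egr1, Egr2 and Egr4 and 0.324 for Egr3. Above the median change of all probes, the excess was 0.47 for Egr1, 0.84 for Egr2, 0.69 for Egr4 and 0.09 for Egr3 on the log2 scale.

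Egr1, the most widely used activity marker of the family, had signals of 72.2, 84.5, 95.7, 98.1 and 122 array medians in saline replicates 3, 6, 4, 2 and 5. In the heroin rats its signal was lowest at 132, had a median of 142 and was highest at 184. Every heroin rat was above every saline rat, which held for 1.66% of all probes tested in this direction. The log2 difference, 0.66 with a standard error of 0.15, gave an exact permutation p = 0.00216, two-sided, the smallest that 462 divisions of the rats allow. The highest value came from heroin replicate 6, whose array was the dimmest, and before scaling the Egr1 intensities overlapped, at 7887 to 11462 in heroin and 4197 to 8441 in saline rats. Each of the 10 spots of the probe, taken alone, gave a change between 0.62 and 0.72, with an exact p between 0.00216 and 0.00794. The spots of an array varied with a pooled SD of 0.07 on the log2 scale, or a coefficient of variation of 5.19%, against an SD of 0.22 between rats of a group.

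Egr2 had the largest change of the 4 except with normexp background correction, where Egr4 had 0.92 and Egr2 0.90, and its mean was 15.9 ± 3.85 array medians (SD, n = 6) against 8.22 ± 3.32 (SD, n = 5). Its saline signals were 4.15 in replicate 3, 5.60 in replicate 6, 8.50 in replicate 4, 11.2 in replicate 5 and 11.6 in replicate 2. The heroin signals ran from 10.03 through a median of 15.8 to 21.7. Thus 5 of 6 heroin rats were above all saline rats, and heroin replicate 3, at 10.03, fell within the saline range. The change was 1.02 on the log2 scale (standard error 0.26, exact permutation p = 0.00866, two-sided).

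Egr4 also had no overlap between the groups. The spot of saline replicate 5 was marked by the scanner software and left out, so its saline group has 4 rats, with signals of 67.8 in replicate 3, 91.5 in replicate 6, 113 in replicate 4 and 129 in replicate 2. In heroin rats the signal was lowest at 145, had a median of 173 and was highest at 275. All 6 heroin rats were above all 4 saline rats, with a mean of 183 ± 47.2 (SD, n = 6) against 100.3 ± 26.6 (SD, n = 4). Over all probes tested, 1.66% had every heroin value above every saline value. With 4 saline rats such a separation is easier to reach than with 5, and the share over these 10 rats is not given here. The log2 change was 0.87 (standard error 0.21), and the exact permutation p = 0.00476, two-sided, is the smallest that 210 divisions allow. With the marked spot kept, saline replicate 5 had 123, still below the lowest heroin rat, and the change was 0.80 (exact permutation p = 0.00216, two-sided). The probe is not among those in the authors' table of normalized values.

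Egr3 was measured close to the limit of the array. Taking the lowest signal scored as well above background on an array as that limit, the mean of Egr3 was 1.95 times the limit, at percentile 1.75 of the probes tested, whereas Egr1, Egr2 and Egr4 lay at 476, 46.8 and 564 times it. The saline signals were 0.373 in replicate 5, 0.382 in replicate 6, 0.408 in replicate 3, 0.439 in replicate 4 and 0.714 in replicate 2. The heroin signals were tightly grouped between 0.508 and 0.588 with a median of 0.529. Thus 4 of 5 saline rats were below all heroin rats and saline replicate 2 was above all of them. Its log2 difference of 0.27, with a standard error of 0.16, did not pass either threshold (exact permutation p = 0.126, two-sided). Without saline replicate 2 it was 0.44 with a limma p of 0.00267 and still below 1.4-fold.

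**Figure D1:**
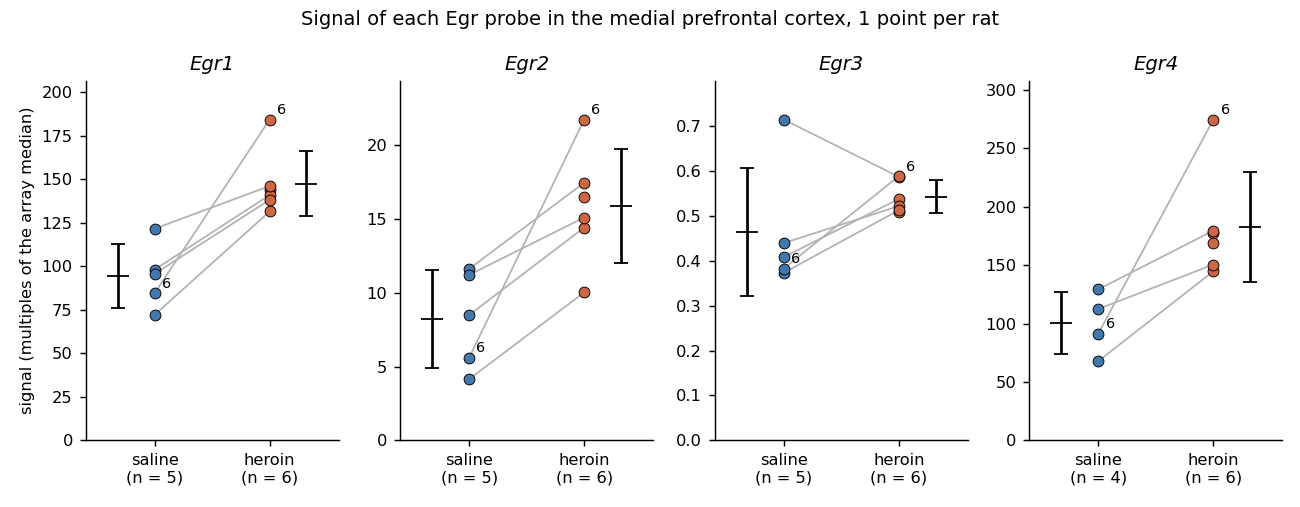
Signal of the Egr1, Egr2, Egr3 and Egr4 probes in multiples of the array median (linear axes from 0), with 1 point per rat, the mean ± SD beside each group, and grey lines between the saline and heroin rats whose arrays shared a slide; the rats numbered 6 are labelled. Heroin and saline rats do not overlap for Egr1 and Egr4, heroin replicate 3 lies within the saline range for Egr2, and saline replicate 2 lies above all heroin rats for Egr3.

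Within slides, the heroin rat had the higher Egr1 signal on 5 of 5 slides, by 0.27 to 1.13 on the log2 scale (mean 0.66 ± 0.34, SD). Egr2 was also higher on 5 of 5, by 0.43 to 1.96, and Egr4 on 4 of 4, by 0.42 to 1.59. Egr3 was higher in the heroin rat on 4 of 5 slides, by up to 0.62, and lower by 0.28 on the slide of the rats numbered 2. The share of all probes higher on every slide is not given here, so these counts are a description. With the replicate number as a block, the median change of all probes was itself 0.17, or 0.01 after quantile normalization. The slide that held the dimmest and the brightest array, that of the rats numbered 6, gave the largest difference for all 4 genes. It did so after quantile normalization too, at 0.56, 1.56, 0.97 and 1.01 for Egr1 to Egr4. After quantile normalization the same numbers of slides had the higher signal in the heroin rat, and the difference of Egr1 ranged from 0.19 to 0.56. With the slide as a random block in limma the changes were 0.66, 1.02, 0.27 and 0.87 for Egr1 to Egr4. Without both rats numbered 6 they were 0.56, 0.81, 0.19 and 0.72. Again 3 of 4 passed both thresholds, beside 605 of the 25555 probes tested that passed and were higher.

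The calls depended on how the arrays were scaled to each other. After quantile normalization Egr2 rose by 0.78 and Egr4 by 0.57, both past the thresholds, as were 0.853% of all probes in that direction, while Egr1 was higher by 0.41, below 1.4-fold. With scaling to the 75th percentile Egr2 alone of the 4 passed, at 0.80, as did 0.129% of all probes in that direction, against 0.44 for Egr1 and 0.59 for Egr4, which was above 1.4-fold but missed the p threshold. Relative to the Actb signal of the same array, Egr2 again was the only member past both, at 0.79, beside 0.047% of all probes. The balance of calls over all probes moved with the scaling too, from 457 higher and 237 lower in heroin rats to 218 and 239 after quantile normalization, 33 and 746 with the 75th percentile and 12 and 910 relative to Actb. The direction was the same for all 4 genes under each of these scalings. Egr3 was higher by 0.40 after quantile normalization but by only 0.05 with the 75th percentile and 0.04 relative to Actb.

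**Figure D2:**
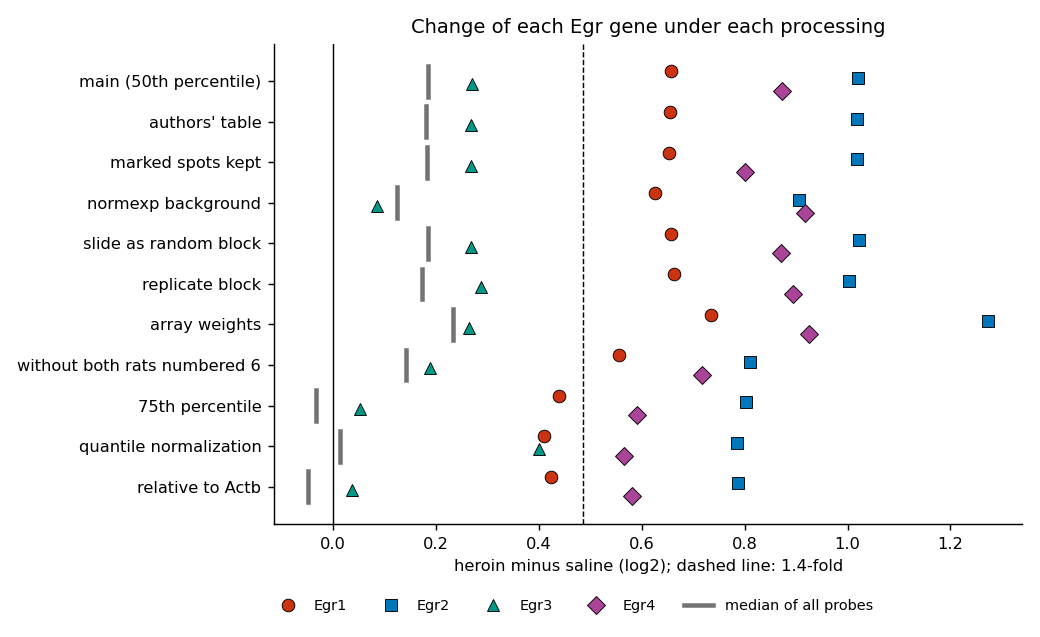
Difference in mean log2 signal between heroin and saline rats for each Egr gene under the main processing and 10 alternatives, with the median change of all probes tested as a grey bar and the 1.4-fold threshold as a dashed line. Egr2 and Egr4 stay to the right of the dashed line throughout, Egr1 falls to its left with the 75th percentile, quantile normalization and Actb, and Egr3 lies to its left throughout.

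Whether the 4 genes changed by different amounts was asked within arrays, where a scaling by 1 factor per array cancels. Pairs with Egr4 rest on 10 rats, without saline replicate 5, so their values are not the differences of the changes printed above. The difference in log2 signal between members was compared between the groups for all 6 pairs, with exact permutation tests, two-sided, and adjustment over the 6 pairs. Egr4 changed by 0.67 more than Egr3 (adjusted p = 0.0286, exact permutation test, interval 0.24 to 1.11). This was the only pair past an adjusted p of 0.05. It had an adjusted p of 0.0909 with the marked Egr4 spot kept (0.53) and 0.440 after quantile normalization (0.18). It was lost without saline replicate 3 (0.56) and without heroin replicates 2 (0.69) or 4 (0.71), where the fewer divisions also raise the smallest p. Without saline replicates 2 (0.60), 4 (0.77) or 6 (0.74) the exact permutation p was 0.0119, adjusted 0.0714. That exact p is the smallest the rats left allow, so these fits cannot show that the difference depends on those rats. Egr3 and Egr2 differed by -0.75 (Egr3 minus Egr2, adjusted exact p = 0.0909, interval -1.34 to -0.13). Among the 3 genes past the thresholds, Egr2 minus Egr1 was 0.36 with an interval of -0.09 to 0.83, Egr4 minus Egr1 was 0.12 with -0.14 to 0.39, and Egr4 minus Egr2 was -0.29 with -0.62 to 0.06. The intervals are unadjusted, and all of those 3 include 0.

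Rats that were high in Egr1 for their group were also high in Egr2 and Egr4. To leave out the group difference, each rat's log2 signal was taken as its deviation from the mean of its own group, and permutations were made within the groups. Egr1 and Egr4 gave Pearson's r = 0.98 and Spearman's rho = 0.92 over 10 rats (exact permutation p = 4.63e-04 and 0.00208, adjusted p over the 6 pairs 0.00278 for r). Egr2 and Egr4 gave r = 0.91 and rho = 0.98 (n = 10, exact permutation p = 0.00197 and 1.16e-04, adjusted 0.005 for r). Egr1 and Egr2 gave r = 0.88 and rho = 0.91 (n = 11, exact permutation p = 0.0025 and 0.00122, adjusted 0.005 for r). The pairs with Egr4 leave out saline replicate 5. With the marked Egr4 spot kept, over 11 rats, r was 0.91 for Egr1 and Egr4 and 0.92 for Egr2 and Egr4. Their exact permutation p-values were then 9.26e-04 and 1.16e-05. In saline rats, replicate 3 was the lowest and replicate 6 the second lowest in Egr1, Egr2 and Egr4 alike. In heroin rats, replicate 6 was the highest and replicate 3 the lowest in all 3 genes.

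Without the rats farthest from the median of the first gene, r was lower for the pairs with Egr4. It was 0.91 for Egr1 and Egr4 without heroin replicate 6 and saline replicate 3 (exact permutation p = 0.0111, with rho = 0.79 and p = 0.0708), 0.85 for Egr2 and Egr4 without heroin replicate 3 and saline replicate 3 (exact permutation p = 0.00139), and 0.92 for Egr1 and Egr2 without heroin replicate 6 and saline replicate 5 (exact permutation p = 0.00382). Leaving out saline replicate 3 alone brought Egr1 and Egr2 to 0.80, with an adjusted exact p of 0.0530. In the 6 heroin rats alone r was 0.97, 0.86 and 0.82 for the 3 pairs, with adjusted exact p-values of 0.0667, 0.129 and 0.144. The rats of a pair of genes share the array and its scaling. After quantile normalization r was 0.94 for Egr1 and Egr4, 0.92 for Egr2 and Egr4 and 0.84 for Egr1 and Egr2, and relative to Actb 0.97, 0.93 and 0.86. With normexp background correction r was 0.90, 0.93 and 0.80, and rho of Egr1 and Egr2 was 0.68, no longer past the threshold (exact permutation p = 0.0535, adjusted 0.107).

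Egr3 gave lower values. Its r was 0.13 with Egr1, 0.46 with Egr2 and 0.61 with Egr4, with exact permutation p-values of 0.715, 0.335 and 0.116, and rho of 0.21, 0.40 and 0.54. The value with Egr4 rests on 10 rats, without saline replicate 5, and those with Egr1 and Egr2 on 11. Over those same 10 rats r was 0.52 with Egr1 and 0.72 with Egr2. With the marked Egr4 spot kept, r of Egr3 and Egr4 was 0.44 over 11 rats (exact permutation p = 0.245). The values of r with Egr1 and with Egr2 moved with single rats. Without 1 rat, r with Egr1 ran from 0.02 (without saline replicate 3) to 0.52 (without saline replicate 5), r with Egr2 from 0.14 (without saline replicate 2) to 0.72 (without saline replicate 5) and r with Egr4 from 0.55 to 0.67. Without the 2 farthest rats they were 0.57, 0.53 and 0.68. Saline replicate 2 was the highest in Egr3 and saline replicate 5 the lowest, although the latter was the highest saline rat in Egr1. Relative to Actb, r of Egr3 and Egr4 was 0.83 with an adjusted exact p of 0.0113, but rho was 0.48. A difference between these correlations and those of the other pairs was not tested.

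**Figure D3:**
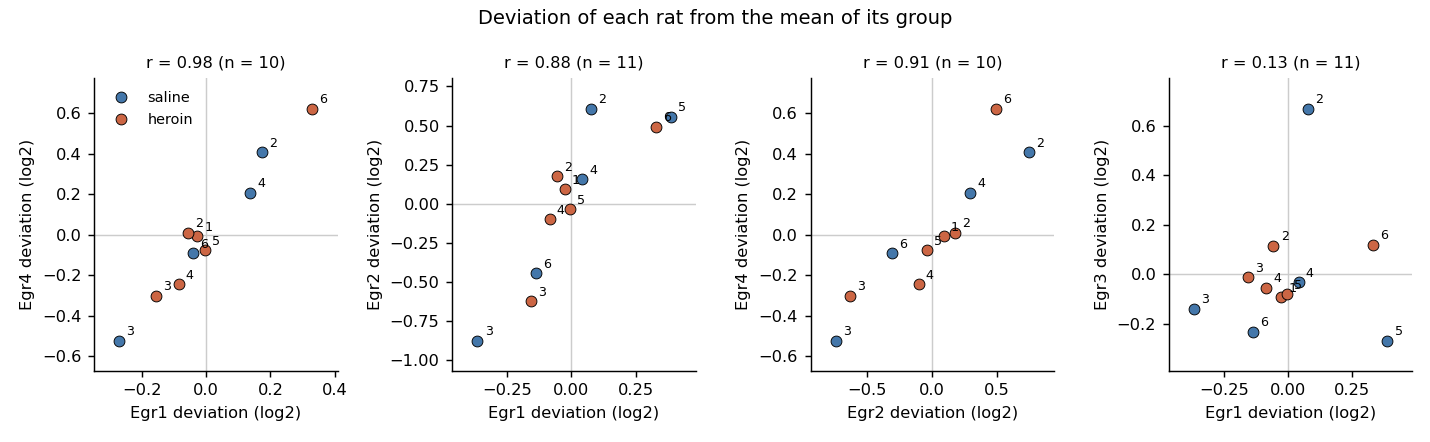
Each rat's log2 signal as its deviation from the mean of its group, for 4 pairs of Egr genes, with the replicate number beside each point. In the panels of Egr1, Egr2 and Egr4, saline replicate 3 lies at the lower left and heroin replicate 6 toward the upper right, while in the last panel Egr3 has r = 0.13 with Egr1.

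Among the 25273 other probes compared with Egr4 over the same 10 rats, 0 had a higher r with it than Egr1, or 1 after quantile normalization, and 13 had a higher r than Egr2. With the marked Egr4 spot kept, r of Egr1 and Egr4 was 0.91, and for that setting these counts are not given here. Of the 25251 probes compared with Egr2, 5 were more like it than Egr1 was, or 23 after quantile normalization. In the same way 48 probes were more like Egr1 than Egr2 was, or 39 after quantile normalization. Egr4, whose spot was dropped on 1 array, is not among these 25251 probes, and its r with Egr2 over 10 rats was 0.91. The median r over all probes was -0.06 with Egr4, 0.04 with Egr2 and 0.14 with Egr1. Outside the family, the named genes most like Egr1 were Ngfrap1, a partner of the p75 neurotrophin receptor (r = 0.94), Thop1, a peptidase that cuts neuropeptides (0.94), and Sugt1, a co-chaperone (0.93), over 11 rats. Those reported here for Egr2 were Gna15, a G-protein alpha subunit (0.89), and Abra, an actin-binding protein (0.88). Ngfrap1 (0.92), the ectonucleotidase Entpd3 (0.91) and Crym, which binds thyroid hormone (0.90), came nearest to Egr4 over 10 rats. For Egr3 they were Dnajc5, a chaperone of synaptic vesicles (0.84), Ager, a receptor for glycated proteins (0.84), and Sln, a regulator of the calcium pump (0.82). None of these genes was itself past both thresholds. These are the highest of all values of r computed over few rats, and they are given as a description.

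Few genes that bind Egr proteins or act upstream of the Egr genes could be tested, and their values are a description. Of the 4 cofactors, the corepressors Nab1 and Nab2 and the acetyltransferases Crebbp and Ep300, 0 passed both thresholds in either direction, which is read against 2.72% of all probes and at that share says nothing about so few genes. Nab2, which Egr proteins are known to induce, had 1.76 ± 0.26 array medians (SD, n = 6) with heroin and 1.67 ± 0.19 (SD, n = 5) with saline, a change of 0.07, or -0.04 after quantile normalization and -0.15 with the 75th percentile. Nab1 had a change of -0.16. Crebbp (0.37) and Ep300 (0.35) were below 1.4-fold, and dimmer probes of these genes gave -0.18 and 0.14 for Crebbp and -0.04 for Ep300. Only 2 of 7 upstream activators could be tested, and neither the ternary complex factor Elk1 (-0.19) nor Creb1 (-0.13) passed. The median change of these lists was 0.21 and -0.16, beside 0.18 for all probes, and with the 75th percentile -0.01 and -0.38, beside -0.03.

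Of the relatives with zinc fingers for GC-rich sites, 6 of 8 could be tested and 1 rose, against 1.79% of all probes in that direction. It was Klf10, a factor induced early by TGF-beta. Klf10 averaged 51.7 ± 5.16 array medians (SD, n = 6) with heroin and 36.0 ± 11.8 (SD, n = 5) with saline. Its log2 change was 0.58 with a standard error of 0.18, and 0.33 after quantile normalization, while its dimmer probe, with the same change of 0.58, did not pass. The call for Klf10 was lost without saline replicate 2 or saline replicate 3. Among 15 genes with known Egr regulation 13 were tested and 1 rose, where 1 gene in so few is not a result about the list. It was Arc, which encodes a dendritic protein of activated synapses and carries Egr sites in its control region. Arc averaged 134 ± 20.6 array medians (SD, n = 6) with heroin and 88.1 ± 35.2 (SD, n = 5) with saline. The change of Arc was past both thresholds in 6 of 11 fits that left out a rat. It was lost without heroin replicates 1, 2 or 3 or saline replicates 3 or 6. Without saline replicates 2 or 5 the list had 2 genes past both thresholds. Of all probes, 238 of 25550 and 1615 of 25548 were then past both and higher. The median of the 13 was 0.21, close to the 0.18 of all probes, and it was 0.06 after quantile normalization and -0.01 with the 75th percentile, beside 0.01 and -0.03 for all probes.

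Of the other immediate-early genes 24 of 26 were tested, 6 rose and 0 fell, against 1.79% of all probes that were higher and past both thresholds. The 6 were Bdnf (0.90), a neurotrophin, Ptgs2 (0.76), the inducible cyclooxygenase, Arc, the nuclear receptor Nr4a3 (0.67), Klf10 and Homer1 (0.51), a postsynaptic scaffold whose short form is induced by activity. Of 3 Nr4a3 probes, the brightest gave this value, the next 0.81, also past both thresholds, and the dimmest -0.04. Fos, the most used marker of neuronal activity beside Egr1, had a change of 0.58 (standard error 0.25, exact permutation p = 0.0866, two-sided) and did not pass. With the replicate number, which is also the slide, as a block 9 of the 24 passed, against 2.11% of all probes. Fos (0.65), Nr4a1 (0.64) and Dusp1 (0.66) were the 3 added. That fit leaves out heroin replicate 1, which has no same-numbered saline rat. Without this rat and with no block 5 passed, beside 429 of 25545 probes that passed and were higher. In the main processing Jun (0.24) and Junb (0.43) did not pass. The median of the list was 0.42, or 0.21 after quantile normalization, which left Bdnf and Ptgs2 past the thresholds, against 0.853% of all probes. Without both rats numbered 6, 4 of the 24 passed, beside 605 of all 25555 probes that passed and were higher. Without saline replicate 2 there were 9, beside 238 of 25550, and without saline replicate 3 there were 4, beside 261 of 25550. With both numbered 6 left out, the counts for the relatives and for the genes with known Egr regulation became 0. In lists so short, that says nothing beside the same 605 probes. Without saline replicate 2, Homer1 was not past both thresholds (0.41). Across rats, as deviations from group means, r of the 24 genes ran from -0.17 to 0.83 with Egr1 and -0.32 to 0.92 with Egr2. With Egr3 it ran from -0.81 (Homer1) to 0.79 (Fos), and with Egr4 from -0.64 to 0.64. The medians were 0.32, 0.35, 0.10 and 0.05 for Egr1 to Egr4.

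**Figure D4:**
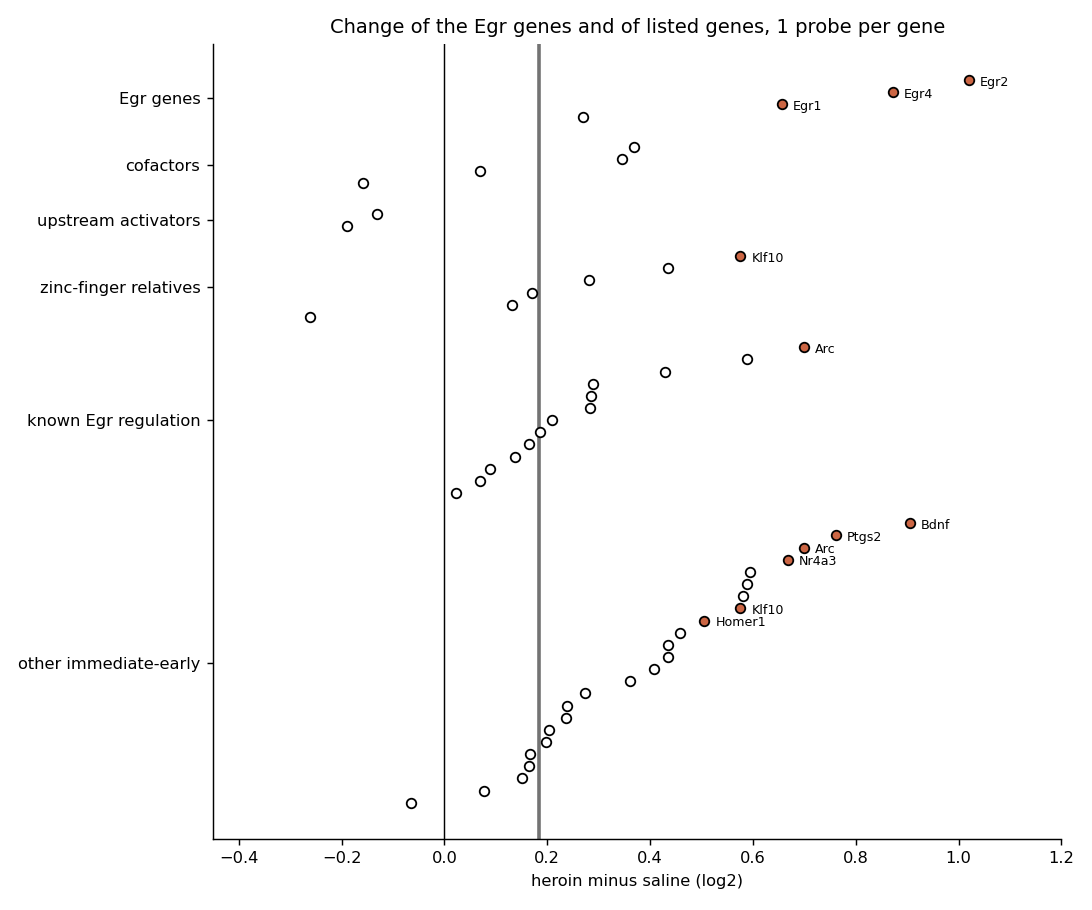
Difference in mean log2 signal between heroin and saline rats for the Egr genes and the tested genes of each list, 1 point per gene, with genes past both thresholds filled and named and the median of all probes tested as a grey line. Egr2, Egr4 and Egr1 lie among the highest points at 1.02, 0.87 and 0.66, beside Bdnf at 0.90. The cofactors lie on both sides of the grey line, and the tested upstream activators lie to its left.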

How the data were processed

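The authors deposited a processed signal intensity for each spot of 11 single-colour Agilent arrays, 1 per rat, which Feature Extraction (9.5.1.1 in the headers of the files) had corrected for background but not scaled between arrays. A deposited table of ratios, in which the authors had scaled arrays and divided each probe by its median in GeneSpring, was used only as an alternative.

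Groups came from the sample titles. Signals under 5 were raised to 5, marked spots (non-uniform or outlying) were dropped, spots of a probe were averaged as log2, and every array was centred on the 50th percentile of its non-control probes. The 25555 probes tested were detected on every array (0.5 or more of their spots well above background) and usable on 2 or more arrays per group. They were fitted with limma 3.58.1 in R 4.3.3, two-sided, which was tested on simulated data, and the thresholds are those of the study's methods. Values of 1 gene were tested by exact permutation over all divisions of the rats. The number of arrays limits the precision.

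Alternatives were the 75th percentile, quantile normalization, Actb, normexp (offset 50), scaling before the floor, the authors' ratios, marked spots kept, other detection filters, the methods' test, trend and robust eBayes, weighted arrays, blocks for replicate number or slide, and each rat left out. Added after seeing the data were the Egr1 spots taken singly, the lists with a block or without a rat, pair differences with marked spots kept, and the removal of both rats numbered 6. Each Egr gene has 1 probe, so averaging probes changes nothing.

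A listed gene with several probes is represented by its brightest tested probe. Named are all Egr probes, listed genes past both thresholds and, for each Egr probe, the 3 named genes with the highest r. Nab1, Nab2, Crebbp, Ep300, Elk1, Creb1, Fos, Nr4a1, Dusp1, Jun and Junb were added after their values were seen. The members and lists were chosen with earlier results of these data known. One gene that the rule for genes most like Egr2 would name is not reported here.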

Additional observations from a re-analysis of the deposited data

Results flagged for a closer look

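Of the 8 groups of values tested, 3 held a rat whose log2 signal stood apart from the rest of its group. In independent groups, chance alone would mark about 1 group in 20. These groups share the arrays, and the flags for Egr1 and Egr4 are both heroin replicate 6. Heroin replicate 6 had an Egr1 signal of 184 array medians, with the next heroin rat at 146, and an Egr4 signal of 275, with the next at 180. Before scaling, its Egr1 intensity of 7887 was the lowest of the heroin rats, on the array with the lowest median (42.7), and after quantile normalization it was 10229, against 10008 in heroin replicate 5. Its Egr4 value after quantile normalization was 15107, against 11478 in heroin replicate 5. Saline replicate 2 had an Egr3 signal of 0.714, with the next saline rat at 0.439. The part of the array's brightness in these values was not tested.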

How the results depend on the processing

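The change of each Egr gene kept its direction under every alternative run. Values near 0 elsewhere did not, among them the changes of Nab2 and Jun and the medians of the cofactors and of the genes with known Egr regulation, which were at or below 0 after quantile normalization or with the 75th percentile. Of the 4 Egr genes, 3 were past both thresholds in the main processing, in all 11 fits without a rat, and under normexp, the methods' test and both blocks, 2 after quantile normalization, and 1 with the 75th percentile and 1 relative to Actb. Egr1 was below 1.4-fold with the 75th percentile (0.44), quantile normalization (0.41) and Actb (0.42), and Egr4 missed the p threshold with the 75th percentile (0.59) and Actb (0.58). Leaving out each rat gave 0.57 to 0.75 for Egr1, 0.80 to 1.17 for Egr2, 0.20 to 0.44 for Egr3 and 0.70 to 1.01 for Egr4. Array weights gave an adjusted p of 0.0185 for Egr1, Egr2 and Egr4, with changes of 0.73, 1.27 and 0.93, but with weights 8425 of the 25555 probes had an adjusted p below 0.05, against 0 without. Over all probes, the number past both thresholds and higher ran from 238 without saline replicate 2 to 1615 without saline replicate 5, beside 457.

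The change of Egr4 minus that of Egr3 was lost after quantile normalization (0.18), with marked spots kept (0.53) and with the replicate block (0.65, where 4 pairs cannot reach 0.05), and ranged from 0.56 to 0.77 without a rat. Egr3 minus Egr1 (-0.54) and Egr3 minus Egr2 (-0.82) passed with normexp and without saline replicate 5, with ranges of -0.55 to -0.24 and -0.96 to -0.57. The correlations in heroin rats alone, 0.82 for Egr1 and Egr2, 0.97 for Egr1 and Egr4 and 0.86 for Egr2 and Egr4, missed the threshold, and Egr1 and Egr2 ranged from 0.80 to 0.92 without a rat. The relatives had 0 genes past both thresholds after quantile normalization, with the 75th percentile and without both rats numbered 6, and the genes with known Egr regulation had 0 under the same settings and 2 with the replicate block. The other immediate-early genes had 2 after quantile normalization and 2 with the 75th percentile. Without a rat these lists had 0 to 1, 0 to 2 and 4 to 9. The cause was not tested.

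Same-numbered rats share a number and, by scan time, a slide. Whether they are yoked pairs is not given in the sources used here. Their deviations correlated between -0.24 and 0.38, not above 0.1 for all. The replicate block, which leaves out heroin replicate 1, gave 0.66, 1.002, 0.29 and 0.89 for Egr1 to Egr4, with 3 past both thresholds. The genes with known Egr regulation had 2 with it and 1 in the main fit, and the other immediate-early genes had 9 and 6. Without heroin replicate 1 and with no block these lists had 0 and 5. The signal of Egr3, 1.95 times the detection limit, bounds what its value can show.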
